A study of Mus musculus with 6 samples.

Results

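The genes described here build and carry mucin-type O-glycans, and they comprise 33 of the 909 genes that could be named on a glycan-focused Affymetrix array. They were chosen by symbol, with earlier results of these data known. Of them, 19 are polypeptide GalNAc-transferases (Galnt and Galntl genes). The 7 enzymes of core synthesis and extension are C1galt1, its chaperone C1galt1c1, Gcnt1, Gcnt2, Gcnt3, B3gnt3 and B3gnt6. The 7 mucins are Muc1, Muc4, Muc5ac, Muc5b, Muc13, Muc15 and Muc20. Liver RNA was measured on 3 arrays labelled as healthy wildtype male mice and 3 labelled as male mice with insulin-deficient diabetes. The sources used here give neither strain nor age, nor how the diabetes was produced. The study asked whether glycan enzymes, those of glycosaminoglycans above all, are expressed less in diabetic liver, in connection with lipids in the plasma. Values are log2 expression values from the authors' RMA processing, a method that removes background, brings the arrays to a common scale and combines the probes of a probe set into 1 value. The labels do not say that each array came from a separate animal, so the p-values measure the spread between these samples.

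Mucin-type O-glycosylation takes place in the Golgi. A GalNAc-transferase moves N-acetylgalactosamine from UDP-GalNAc onto a serine or threonine of a secreted or membrane protein, and C1galt1 then adds galactose to form the core 1 disaccharide. C1galt1 depends on C1galt1c1, also called Cosmc, a chaperone of the endoplasmic reticulum. Branching by Gcnt enzymes and extension by B3gnt enzymes give the other cores and longer chains, which sialic acid or fucose usually caps. In hepatocytes the pathway acts on secreted proteins of lipid metabolism. Galnt2 is known for glycosylating apolipoprotein C-III, and Galnt11 for acting on receptors of the LDL receptor family. Mucins are the proteins with the densest O-glycans and are made mainly by epithelia, in liver by bile duct cells.

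Promoter sequence was available from RefSeq (GRCm38.p6) for 22 of the 33 genes, with 32 annotated starts, and was read over the 250 bases before each start. Of these, 5 are shown because the results below turn on their genes. C1galt1 (chr6:7844974-7845223, + strand) was highest on the arrays numbered 1 in both groups. Galnt17 (chr5:131307523-131307772, - strand), Muc13 at the first of its annotated starts (chr16:33793787-33794036, + strand) and Muc20 (chr16:32797436-32797685, - strand) were lowest on those arrays. Galntl5 (chr5:25181230-25181479, + strand) is a gene whose groups did not overlap. Each runs 5′ to 3′ on the gene's strand, and capitals mark every CpG and the match in Muc20 to the forkhead motif GTAAACA.
C1galt1: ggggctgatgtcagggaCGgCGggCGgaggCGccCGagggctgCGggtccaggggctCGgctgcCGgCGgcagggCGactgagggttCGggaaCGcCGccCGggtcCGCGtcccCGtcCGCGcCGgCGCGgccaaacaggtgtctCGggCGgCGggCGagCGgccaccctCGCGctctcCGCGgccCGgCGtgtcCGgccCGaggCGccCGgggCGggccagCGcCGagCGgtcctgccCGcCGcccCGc
Galnt17: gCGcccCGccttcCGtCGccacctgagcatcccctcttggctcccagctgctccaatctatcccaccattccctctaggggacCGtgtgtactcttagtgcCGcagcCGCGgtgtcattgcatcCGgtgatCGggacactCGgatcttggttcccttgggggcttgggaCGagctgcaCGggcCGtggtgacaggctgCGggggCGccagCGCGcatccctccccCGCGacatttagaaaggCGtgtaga
Galntl5: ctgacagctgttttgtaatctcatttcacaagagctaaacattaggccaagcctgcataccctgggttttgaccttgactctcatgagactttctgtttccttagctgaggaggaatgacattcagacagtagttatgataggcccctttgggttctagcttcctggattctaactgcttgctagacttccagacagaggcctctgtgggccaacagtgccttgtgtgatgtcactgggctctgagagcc
Muc13: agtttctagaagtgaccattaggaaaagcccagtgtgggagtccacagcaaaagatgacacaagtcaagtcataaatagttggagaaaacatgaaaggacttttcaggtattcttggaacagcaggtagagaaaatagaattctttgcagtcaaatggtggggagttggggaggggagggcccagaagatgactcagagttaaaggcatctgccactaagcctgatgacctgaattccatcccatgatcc
Muc20: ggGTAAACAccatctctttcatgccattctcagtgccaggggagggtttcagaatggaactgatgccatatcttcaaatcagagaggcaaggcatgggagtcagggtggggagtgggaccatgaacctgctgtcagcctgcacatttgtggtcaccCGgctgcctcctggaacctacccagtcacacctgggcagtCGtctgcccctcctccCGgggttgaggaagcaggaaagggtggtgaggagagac

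These windows differed widely in CpG. The C1galt1 window held 44 CpG and that of Galnt17 held 21, while Muc20 held 3 and Muc13 and Galntl5 held 0. The median over all 32851 RefSeq windows was 6. All 5 mucin windows, of 4 genes, held between 0 and 4 CpG, whereas the 19 windows of 14 GalNAc-transferase genes ran from 0 to 34. At least 10 CpG were found in 16 of the 32 windows, against 37.8% of all windows. Motifs were searched on both strands. The GC box GGGCGG, which itself holds a CpG, occurred in 11 of the 32 windows (32.7% of all windows), and 5 times in that of C1galt1. The TATA box TATAAA occurred in 4 windows, of Gcnt1, Galntl6, Muc1 and Muc4 (12.4% of all windows), and CCAAT in 6 (33.8%). GTAAACA, a motif of forkhead factors, among them the FoxO factors that insulin signalling restrains, matched in 1 of the 32 windows, that of Muc20, 248 bases before the start (3.17% of all windows). These matches describe letters and do not show a bound site.

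No mucin-type O-glycan gene passed the test in diabetic against wildtype liver. Of the 33 genes 0 were called by limma at an adjusted p of 0.05, in either direction, where the background was 0.321% (4 of 1246 probe sets). The count at an unadjusted p under 0.05 was also 0, against 2.97% of all probe sets. The means were higher in diabetic liver for 14 genes and lower for 19, and a lower mean was found for 49.5% of the 909 genes. The median difference, diabetic minus wildtype on the log2 scale, was -0.04 over the 33 genes and 0.00 over all named genes. The adjusted p-values of the 33 ran from 0.928 to 0.990. A limma fit that blocked on the replicate number also called 0 of them, at a lowest adjusted p of 0.822, where the background was 0% (0 of 1246 probe sets). In that fit 0 had an unadjusted p under 0.05, against 4.33% of all probe sets.

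The intervals set limits on the size of a change. All 33 95% confidence intervals held 0 and lay within -1 and 1, and 28 of the 33 lay within -0.5 and 0.5. The outermost bounds were -0.65 for C1galt1 and 0.58 for Galnt10. Signal limits what these intervals mean: 16 genes lay above the array median on all 6 arrays, 15 lay below it on all 6, and Galnt18 and Muc20 fell on both sides. A dim probe set near background can hide a difference, and 12 of the 28 narrow intervals belonged to genes above the median throughout. The median is not a detection limit, so a level above it does not show that a transcript was present. The median SD within groups was 0.13 for these genes and 0.15 for all named genes.

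**Figure D1:**
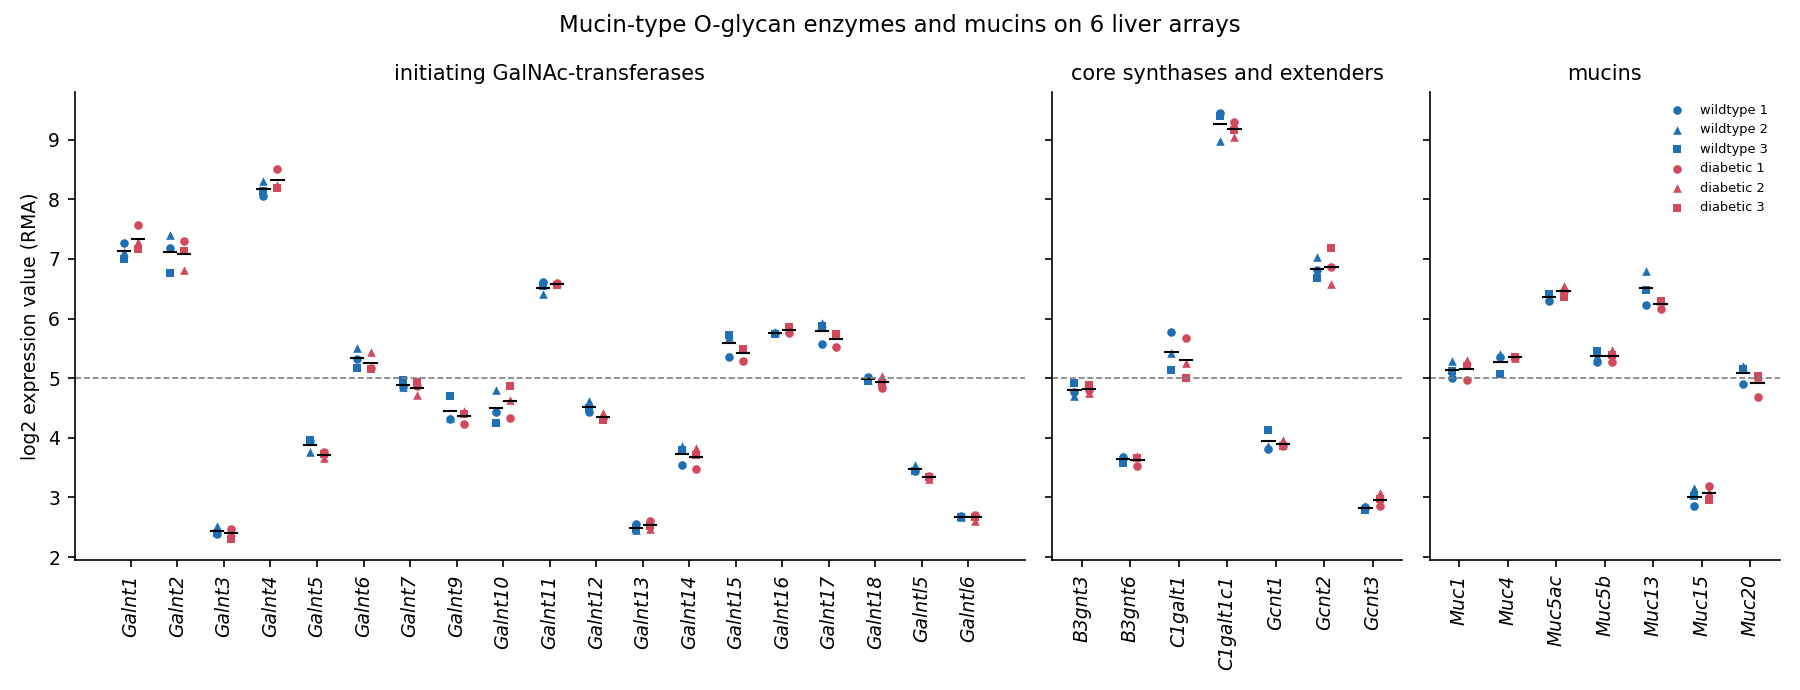
Log2 expression values (vertical axis) of the 33 genes by role, with each array as a point (blue wildtype, red diabetic; circle, triangle and square for replicates 1, 2 and 3) and short bars for group means. The dashed line is the mean of the 6 array medians; probe sets bind with different strength, so heights are not compared between genes, and the groups overlap in every gene but Galnt12 and Galntl5.

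Hepatocyte markers were bright on every array, as the label liver calls for. The asialoglycoprotein receptor subunit Asgr1 lay between 12.19 and 12.46 on all 6 arrays, and all 6 measured hepatocyte markers lay above the array median. These 6 genes did not move together. Asgr1 and Asgr2 differed by 0.00 and 0.02 between the groups, while the lectin Mbl2 differed by 1.03 (limma adjusted p = 0.041, and 0.142 with the replicate block). Igfbp1 differed by 2.74, Mbl1 by 0.27 and Igfals by -0.61, none of them called. Igfbp1 gave 6.26, 6.50 and 10.09 in wildtype and 10.65, 8.90 and 11.52 in diabetic liver, with wildtype 3 above diabetic 2. The mean level of the 6 was 9.86 to 10.65 in wildtype and 10.59 to 10.97 in diabetic liver. Igfbp1, with the widest spread of the 6, weighed most in these ranges, so they do not measure hepatocyte content. Array medians ran from 4.93 to 5.06. Bile duct cells were covered only by Muc1, which belongs to the genes described. In bulk tissue, fewer cells of a type and less RNA per cell cannot be told apart. Marker lists of other cells had mean levels that overlapped between the groups, at 5.43 to 5.78 in wildtype and 5.29 to 5.97 in diabetic liver for 7 macrophage genes, 5.67 to 5.89 and 5.49 to 5.85 for 5 endothelial genes, 4.67 to 5.17 and 4.61 to 4.83 for 4 stellate cell genes, and 4.58 to 4.71 and 4.59 to 4.72 for 4 lymphocyte genes. Number by number, the endothelial mean was lower in each diabetic array, at 5.67, 5.81 and 5.89 in wildtype and 5.49, 5.60 and 5.85 in diabetic liver.

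Among the Galnt and Galntl genes, 6 had a higher and 13 a lower mean in diabetic liver, with a median difference of -0.05. That median was 0.0015 without wildtype 2 and 0.0084 without the dimmer probe sets. Galnt4, a transferase known for its action on the selectin ligand PSGL-1, gave 8.06, 8.31 and 8.15 on wildtype arrays 1, 2 and 3 and 8.52, 8.24 and 8.19 on the diabetic arrays. Diabetic 1 stood above the rest and the other arrays intermixed. The difference was 0.15 (95% confidence interval -0.14 to 0.43; limma adjusted p = 0.928) and was 0.05 without diabetic 1. The gene is annotated as overlapping Poc1b, so signal from that gene was not separated.

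Galnt1, a broadly expressed transferase, had the largest positive difference of the 33 genes. Its values were 7.26, 7.12 and 7.0 in wildtype and 7.57, 7.28 and 7.17 in diabetic liver. Each diabetic array lay above the wildtype array of the same number, but diabetic 3 lay below wildtype 1, so the groups overlapped. The difference was 0.21 (SE 0.13, interval -0.10 to 0.53; limma adjusted p = 0.928, and 0.822 with the replicate block). It ran from 0.10 without diabetic 1 to 0.30 without diabetic 3.

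Galnt2, the transferase with known apolipoprotein substrates, gave 7.19, 7.40 and 6.77 in wildtype and 7.30, 6.81 and 7.12 in diabetic liver. The groups lay on top of each other. The difference was -0.04 (interval -0.51 to 0.43), and it changed sign with the array left out, from -0.22 without wildtype 3 to 0.10 without wildtype 2. Galnt11, singled out after its values were seen, was steadier: its 3 diabetic arrays lay between 6.56 and 6.60, within the wildtype range of 6.41 to 6.61, with a difference of 0.07 (interval -0.13 to 0.26). For both of these transferases with lipoprotein-related substrates the interval lay on both sides of 0.

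Of the 33 genes, 2 had groups that did not overlap, Galnt12 and Galntl5, both lower in diabetic liver; the background was 7.7% in either direction and 3.3% in this one. None was higher without overlap, against 4.4% of all named genes. Galnt12, a transferase of digestive epithelia, read 4.43, 4.62 and 4.51 in wildtype and 4.34, 4.41 and 4.30 in diabetic liver. The gap between the lowest wildtype and the highest diabetic array was small beside the spread within the groups. The difference was -0.17 (SE 0.08, interval -0.37 to 0.03; limma adjusted p = 0.928), at a probe set whose suffix marks possible cross-hybridisation. Galntl5, a testis relative of the transferases, read 3.44, 3.55 and 3.45 against 3.35, 3.31 and 3.34, a difference of -0.14 (SE 0.07, interval -0.32 to 0.03; limma adjusted p = 0.928). Both lay below the array median on all 6 arrays.

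Galnt5 and Galnt15 had the largest negative differences of the family. Galnt5 gave 3.94, 3.75 and 3.96 in wildtype and 3.75, 3.66 and 3.73 in diabetic liver, with wildtype 2 and diabetic 1 at the same level. Its difference of -0.17 (interval -0.38 to 0.04) came from a dim probe set. Galnt15 gave 5.36, 5.69 and 5.72 in wildtype and 5.29, 5.49 and 5.49 in diabetic liver. Both arrays numbered 1 were the lowest of their group, and the difference was -0.17 (interval -0.47 to 0.13), or -0.29 without wildtype 1 and -0.10 without diabetic 1. The other transferases differed by between -0.13 for Galnt17 and 0.12 for Galnt10. Galnt7 and Galnt10, which prefer peptides that already carry GalNAc, differed by -0.05 and 0.12, and Galnt10 gave -0.01 without diabetic 3. Galnt3, which protects the hormone Fgf23 from cleavage, Galnt13 and Galntl6 stayed between 2.31 and 2.71 on every array, near the bottom of the range of deposited values, which began at 2.03.

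**Figure D2:**
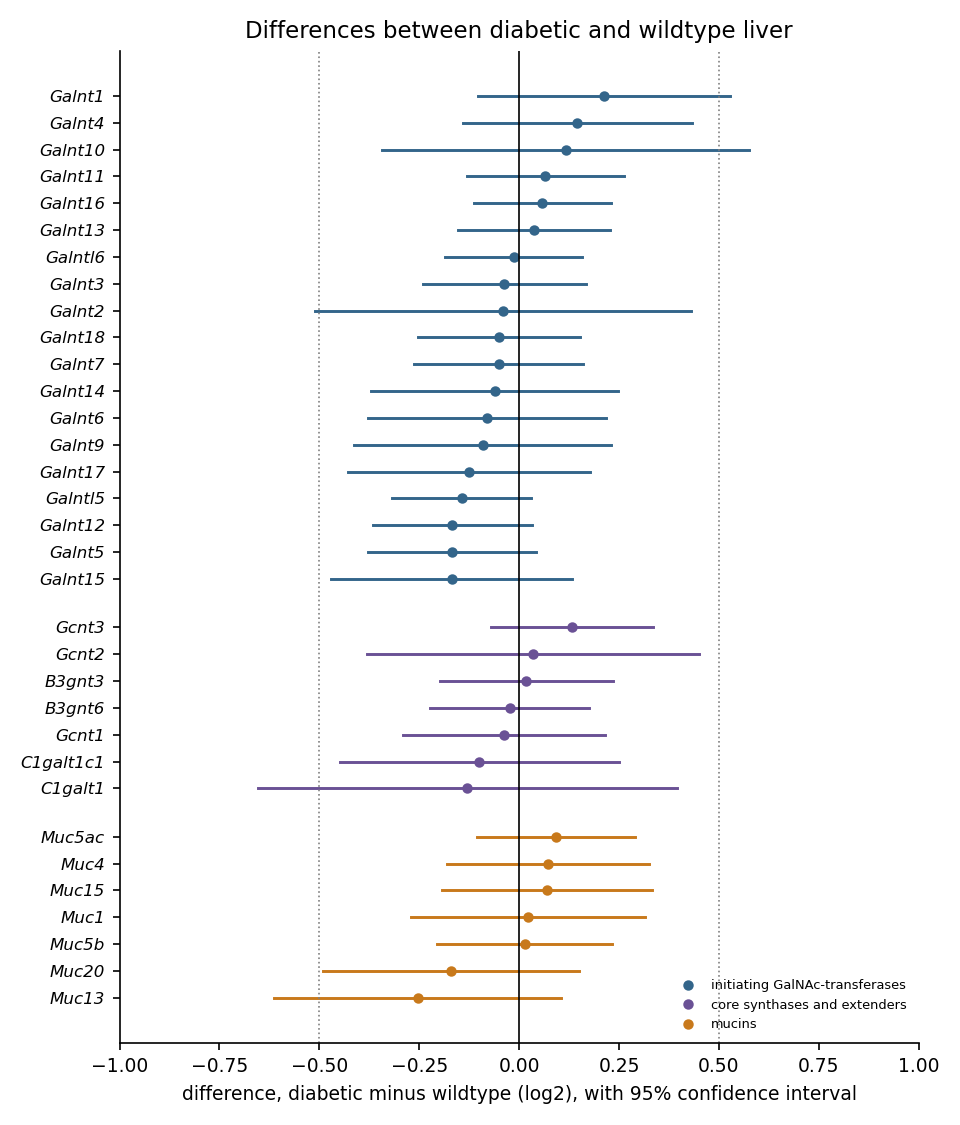
Difference between diabetic and wildtype liver in log2 units (horizontal axis), with its 95% confidence interval from limma, for each of the 33 genes by role. Every interval crosses 0, and 28 of the 33 lie between the dotted lines at -0.5 and 0.5.

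The 7 core enzymes had 3 higher and 4 lower means, with a median difference of -0.02. C1galt1, the core 1 synthase, gave 5.77, 5.42 and 5.15 in wildtype and 5.67, 5.26 and 5.01 in diabetic liver. The order of the replicate numbers was the same in both groups, and each diabetic array lay slightly below its wildtype counterpart. The difference was -0.13 (SE 0.22, interval -0.65 to 0.40; limma adjusted p = 0.985), and the spread among arrays of a group, with SDs of 0.31 and 0.33, exceeded it. Without wildtype 1 the difference was 0.03 and without diabetic 1 it was -0.31. Each of these refits left an array numbered 1 without its counterpart. With the replicate block the SE was 0.07, at a limma adjusted p of 0.822.

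C1galt1c1, the chaperone on which C1galt1 depends, gave 9.44, 8.98 and 9.39 in wildtype and 9.30, 9.05 and 9.16 in diabetic liver, with the groups intermixed. The difference was -0.10 (interval -0.45 to 0.25; limma adjusted p = 0.975). It was -0.25 without wildtype 2, the lowest array, and -0.01 without wildtype 1. As for C1galt1, the arrays numbered 1 were the highest of each group, but the lowest array was numbered 2 for the chaperone and 3 for the enzyme.

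Gcnt2, which makes the I branches of poly-N-acetyllactosamine, gave 6.81, 7.03 and 6.68 in wildtype and 6.86, 6.57 and 7.18 in diabetic liver. The lowest and the highest array were both diabetic, and the difference was 0.03 (interval -0.38 to 0.45). Gcnt3, a core 2 and core 4 branching enzyme of mucus-making epithelia, gave 2.85, 2.85 and 2.79 against 2.85, 3.07 and 2.97, a difference of 0.13 at a dim probe set (interval -0.07 to 0.34), with 0.08 at its other probe set. Gcnt1, the widespread core 2 enzyme, differed by -0.04 at its brighter probe set and by 0.18 at the other. The core 3 synthase B3gnt6 differed by -0.02, and B3gnt3, which extends core 1, by 0.02; both lay below the array median on all 6 arrays.

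Among the mucins 5 means were higher and 2 lower, with a median difference of 0.02. That median had no stable sign, at -0.035 without diabetic 2, -0.036 without wildtype 1 and 0.097 without wildtype 2. Muc13, a transmembrane mucin of digestive epithelia, had the largest negative difference of the 33 genes. It gave 6.23, 6.80 and 6.48 in wildtype and 6.16, 6.29 and 6.29 in diabetic liver. Wildtype 1 lay below the upper diabetic arrays, so the groups overlapped, and wildtype 2 lay highest. The difference was -0.25 (SE 0.15, interval -0.61 to 0.11; limma adjusted p = 0.928), which was -0.11 without wildtype 2 and -0.39 without wildtype 1. Wildtype 2 was also the array with the highest Reg1, at 5.75 against 3.57 to 3.90 on the others, and Reg3b, at 5.76 against 4.21 to 4.42. These secreted proteins of pancreas and intestine were the 2 measured of 12 listed markers of those organs, and their part in the Muc13 value was not tested.

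Muc20, a small transmembrane mucin, gave 4.90, 5.21 and 5.15 in wildtype and 4.69, 5.02 and 5.03 in diabetic liver. The arrays numbered 1 were again the lowest of each group, and each diabetic array lay below the wildtype array of its number. The difference was -0.17 (interval -0.49 to 0.15; limma adjusted p = 0.928, and 0.822 with the replicate block) and was -0.06 without diabetic 1. Its neighbour Muc4, which is annotated as overlapping it, gave 5.35, 5.41 and 5.08 against 5.36, 5.34 and 5.35. Wildtype 3 was the low array, and the 3 Muc4 probe sets differed by 0.07, 0.08 and 0.06, the last 2 with suffixes for possible cross-hybridisation.

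The gel-forming mucins differed little. Muc5ac gave 6.30, 6.37 and 6.42 in wildtype and 6.45, 6.54 and 6.37 in diabetic liver, a difference of 0.09 (interval -0.11 to 0.29) at a probe set marked for possible cross-hybridisation. Muc5b gave 5.27, 5.38 and 5.45 against 5.27, 5.48 and 5.39, with a difference of 0.01 (interval -0.21 to 0.23). The transmembrane mucins Muc1 and Muc15 differed by 0.02 and 0.07. No mucin value separated the groups.

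**Figure D3:**
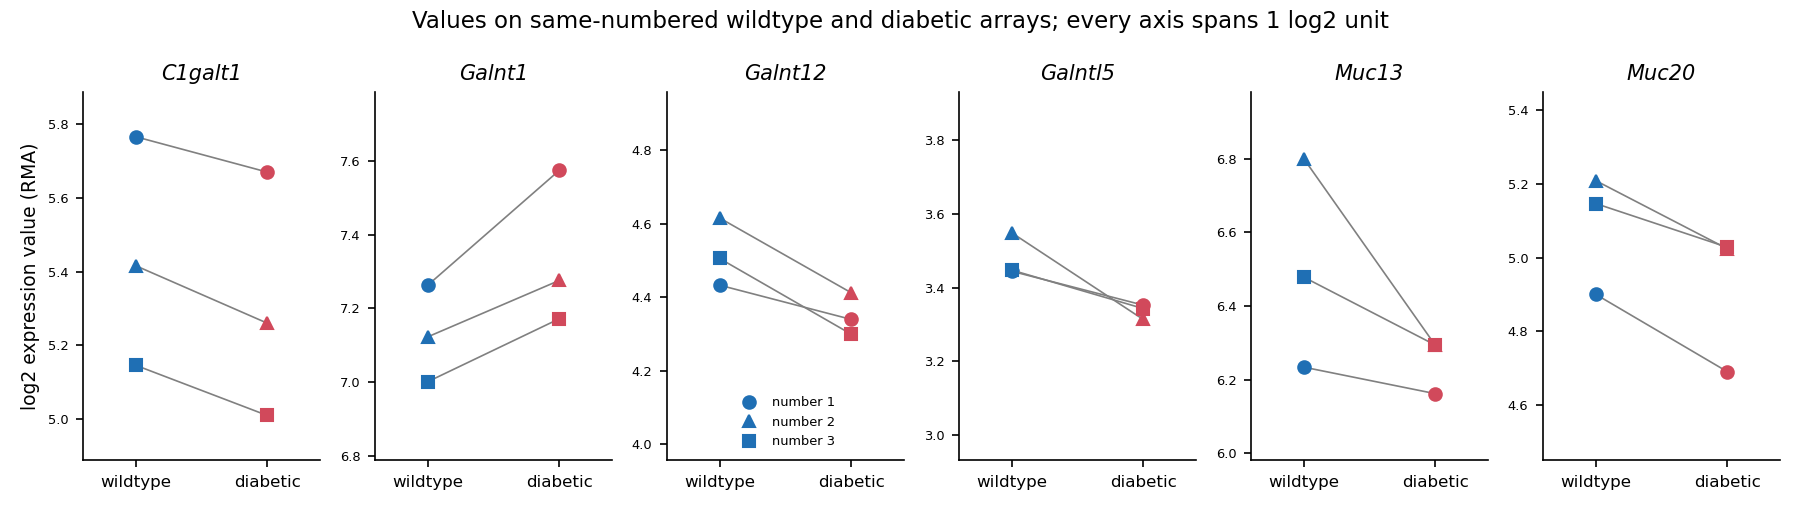
Log2 expression values (vertical axes, each spanning 1 log2 unit) of 6 genes in wildtype (blue) and diabetic (red) liver, with grey lines joining arrays of the same replicate number. C1galt1 and Galnt1 keep the order of the numbers across the groups, and the diabetic arrays of Galnt12 and Galntl5 lie below all wildtype arrays by small margins.

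Levels of these genes also varied by replicate number, across the groups. Over the 33 genes, deviations from the group means of the 2 arrays numbered 1 correlated at 0.65, against 0.397 over all 1246 probe sets. For the arrays numbered 2 and 3 the values were 0.05 and 0.09, below the 0.138 and 0.162 of all probe sets. These are correlations across genes, which are not independent replicates. C1galt1, C1galt1c1, Galnt1, Galnt11, Galnt13 and Galntl6 were highest on array 1 in both groups, which held for 12.9% of all named genes. Gcnt1, Galnt9, Galnt14, Galnt15, Galnt17, Muc1, Muc5b, Muc13 and Muc20 were lowest there in both groups, against 18.2% of all named genes.

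Among the mucins 4 of 7 were in the lower set and 0 in the higher. Averaged over both groups, array 1 lay 0.51 above the other arrays for C1galt1 and 0.28 above for Galnt1. It lay below them by a difference of -0.31 for Muc20, -0.28 for each of Galnt14, Galnt15 and Galnt17, and -0.27 for Muc13. The largest difference between diabetic and wildtype liver, that of Muc13, was -0.25. When all arrays were moved to the same median, 9 genes were highest and 6 lowest on array 1 in both groups, against 25.6% and 7.48% of all named genes, so these counts depend on the scaling. Macrophage and endothelial markers varied by number too. The median macrophage marker lay lower on array 1 than on the other arrays, by a difference of -0.40, and 0.56 higher on array 3. Of the 7, 5 were highest on array 3 in both groups, against 11.3% of all named genes. The median endothelial marker differed by -0.28 on array 1 and by 0.25 on array 3. Of the stellate cell markers 1 of 4, and of the lymphocyte markers 0 of 4, were highest on array 3 in both groups. The part of these cells in the pattern of the O-glycan genes was not tested. What same-numbered arrays have in common is not stated in the labels.

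**Figure D4:**
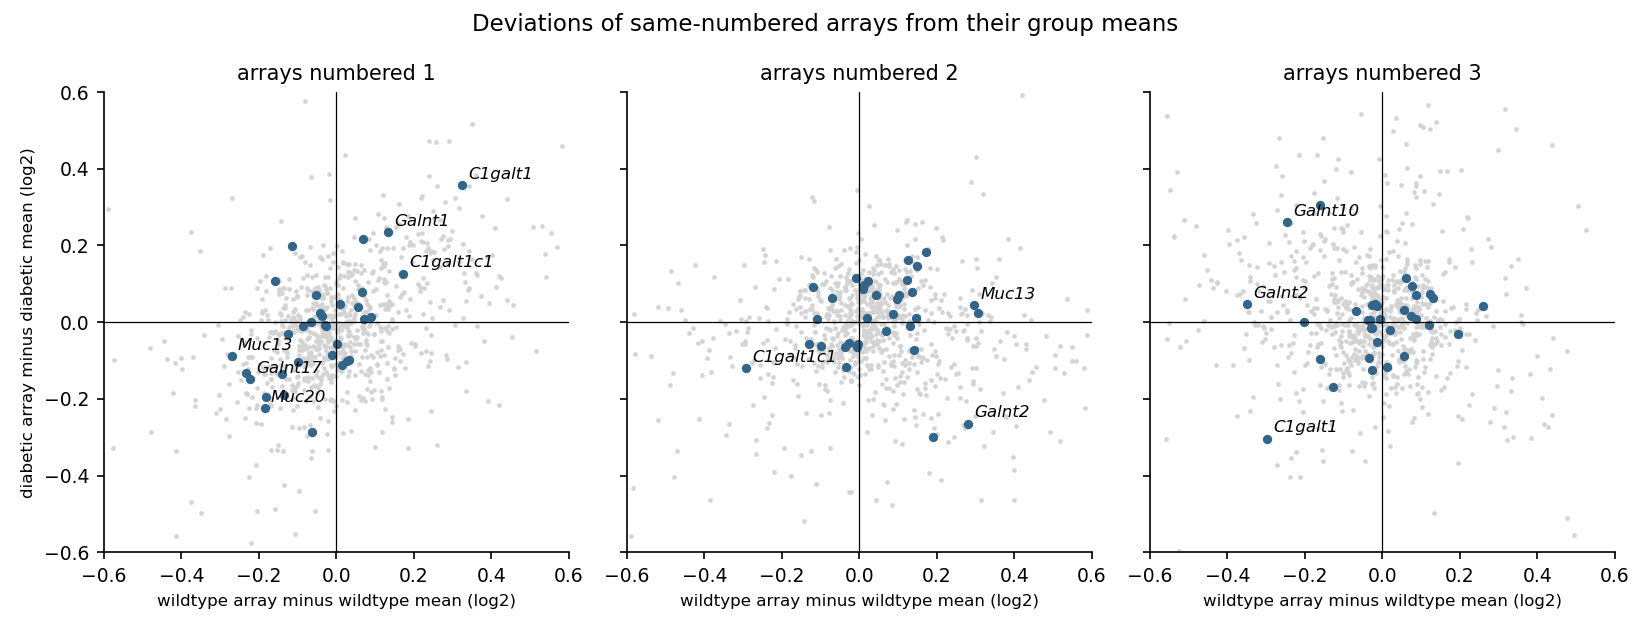
Deviation of a diabetic array from the diabetic mean (vertical axis, log2) against that of the same-numbered wildtype array from the wildtype mean (horizontal axis, log2), for the 33 genes in blue and all named genes in grey. The blue points of the arrays numbered 1 scatter about the diagonal (correlation 0.65), with C1galt1 at the upper right and Muc20 and Galnt17 at the lower left. Some, such as Galnt4 and Muc15, lie off it. Between 21 and 44 of the 909 genes fall outside an axis limit of 0.6 and are not drawn.

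Within the pairs of same-numbered arrays, 10 of the 33 genes were lower in the diabetic array of all 3 pairs, against 11.4% of all named genes. They were C1galt1, Galnt5, Galnt6, Galnt12, Galnt14, Galnt15, Galnt17, Galntl5, Muc13 and Muc20, and 5 of the 10 lay above the array median on all 6 arrays. Galnt1, Galnt13 and Gcnt3 were higher in all 3 pairs, against 14.3% of all named genes. Both directions together made 13 of 33, against 25.7%. With pair 3 left out, 11 of the 33 genes (33.3%) were lower in both other pairs, near the 30.1% of all named genes. The shares were 39.4% and 21.3% without pair 1, and 39.4% and 19.5% without pair 2. None of the 10 passed the blocked test. Of the 5 endothelial markers, 3 were also lower in all 3 pairs: Selp, Icam2 and Clec4g, with differences of -0.30, -0.22 and -0.25. The others, Pecam1 and Sele, each had a slightly higher mean in diabetic liver, by 0.02. Selp and Icam2 had unadjusted p-values of 0.014 and 0.045 in the blocked limma fit, each at an adjusted p of 0.822. Of 7 macrophage markers only Cd74 (-0.41), and of 4 lymphocyte markers only Cd2 (-0.18), were lower in all 3 pairs as well. The part of these cells in the count of 10 was not tested.

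The other genes of the pathway showed 0 called by limma among the 45 measured of 55 listed, with 20 higher and 25 lower means and a median difference of -0.01. At an unadjusted p under 0.05 there were 2 of the 45, St6galnac3 and Neu1, a share near the 2.97% of all probe sets. St6galnac3, which adds sialic acid to the GalNAc of sialylated core 1, gave 3.98, 3.89 and 3.77 in wildtype and 3.58, 3.69 and 3.56 in diabetic liver, all below the array median. The groups did not overlap and the difference was -0.27 (SE 0.09, interval -0.48 to -0.06; limma adjusted p = 0.928). Neu1, the lysosomal sialidase, gave 7.88, 7.93 and 7.75 against 8.07, 8.09 and 8.05, a difference of 0.21 (SE 0.08, interval 0.02 to 0.40; limma adjusted p = 0.928), again with no overlap.

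Groups without overlap were found for 3 more of the 45, St6galnac2 at -0.25, Cd164 at 0.17 and Fut9 at 0.16, which makes 5 of 45 beside the background of 7.7%. Cd164 is a mucin-like sialomucin, and Fut9 a fucosyltransferase of the Lewis x antigen whose values lay below the array median. St6galnac2 was -0.10 without wildtype 3, the highest array. The largest differences belonged to genes with wide spread. B4galt5, a galactosyltransferase, differed by -0.46 (interval -1.18 to 0.25), or -0.18 without wildtype 1 and -0.78 without wildtype 3. Slc35d1, a Golgi and endoplasmic reticulum transporter of nucleotide sugars, differed by -0.37, or -0.01 without wildtype 2. Glb1, the lysosomal galactosidase, differed by 0.35, or 0.17 without wildtype 3. Of the 7 capping sialyltransferases 4 had lower means (median difference -0.13).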

How the data were processed

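Deposited values of 6 arrays were used. The authors deposited log2 expression values made with RMA, per the submitters' processing notes (its version: not given in the sources used here). Of 1246 probe sets, 963 were named through a RefSeq gene table (GRCm38.p6), giving 909 genes. Where a gene had several probe sets, the one brightest on average was kept, and 4 of the 33 representatives have a suffix for possible cross-hybridisation. The groups were compared over all probe sets in R 4.3.3 with limma 3.58.1 (lmFit, eBayes), and p-values were adjusted after Benjamini and Hochberg. Differences are diabetic minus wildtype; errors are moderated SEs, group spreads SDs with n = 3. No detection calls were used. Precision is limited by the number of arrays. Members and lists were chosen with earlier results of these data known. Members named with all values were, per role, the 3 brightest and the 2 largest differences each way, those without overlap between groups or with an unadjusted p under 0.05, C1galt1 and C1galt1c1; pathway genes were the 2 largest differences each way and those meeting either criterion.

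Deviations of same-numbered arrays correlated at 0.397, 0.138 and 0.162 over all probe sets, so the numbers were treated as pairs and a fit with the replicate block was run. The labels state no pairing, so this choice, and the counts over pairs, rest on these same data. Scripts were tested on simulated data. Other alternatives were scaling, a filter on dim probe sets, the variance model, array weights, the probe set chosen and leaving out each array.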

Additional observations from a re-analysis of the deposited data

How the results depend on the processing

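Of the 33 genes 0 were called by limma under every alternative run: the median shift, quantile normalization, without the dimmer probe sets (16 genes fitted), eBayes with trend and robust, array weights, the replicate block, the ordinary linear model without moderation, an adjusted p of 0.10 and leaving out each array; the 45 pathway genes likewise gave 0. Over all probe sets the count of 4 was 0 with the ordinary linear model, with the replicate block and under trend and robust eBayes, and between 0 and 1 with 1 array left out; the cause was not tested. The paired fit with the replicate block changed no call of the 33 genes. At an unadjusted p under 0.05 leaving out wildtype 1 gave 2 of them (Muc13 and Galnt15), leaving out wildtype 2 gave 1 (Galnt5) and the ordinary linear model gave 1 (Galntl5). The median difference of the 33 genes, -0.037, was 0.018 without the dimmer probe sets, where fewer genes enter, and ran from -0.040 to 0.0015 with 1 array left out, turning its sign without wildtype 2. The medians of the GalNAc-transferases and of the mucins also turned their sign with 1 array left out, running from -0.064 to 0.0015 and from -0.036 to 0.097. That of the core enzymes, -0.024, was -0.099 without the dimmer probe sets (3 genes), 0.018 with all probe sets of a gene averaged, and between -0.040 and 0.023 with 1 array left out. With any 1 array left out, 18 of the 33 genes changed sign at least in 1 refit. The count of 10 genes lower in all pairs, an alternative added after seeing the data, was 10 after the median shift and 9 after quantile normalization. Signal near background limits the 15 genes below the array median, and without detection calls it may limit genes above it too.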
